A study of Mus musculus with 16 samples.

Results

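The genes described here are the mouse genes named Zfp (zinc finger protein) with a number under 700, in cultured cortical neurons depolarised with KCl. They were chosen by symbol, leaving out Zfp36, an RNA-binding protein of another family, and by a mean of at least 6 over all 16 arrays on the scale log2(intensity + 16). The rule kept 193 of the 208 such genes that the array names, and all 193 were among the 13916 genes tested of 18194 named. The rule used only a mean over all arrays, so the comparisons between groups were no part of it, although the group of genes itself was picked with earlier results of these data known. Just inside the threshold were Zfp541 at 6.08, Zfp599 at 6.09 and Zfp473 at 6.40, and just outside it Zfp626 at 5.87, Zfp474 at 5.80 and Zfp455 at 5.79. The 15 genes below it include Zfp42, a marker of embryonic stem cells, and Zfp395.

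Neurons came from the cortex of C57BL/6 mouse embryos at embryonic day 16.5. On day 5 in vitro they received, for 6 h with 6 ug/mL polybrene, a lentivirus with an shRNA that targets either c-Fos or, as the control, firefly luciferase, a gene mice do not have. On day 7 activity was silenced, and KCl was then left on for 0, 1, 3 or 6 h, which depolarises the membrane and lets calcium in. Each of the 8 groups of shRNA and time had 2 biological replicates, each on 1 Affymetrix mouse genome 430 2.0 array, so the number of arrays limits the precision. All cultures, the control and 0 h groups included, were infected and silenced, and none without virus was analysed here. No label states that the 2 replicates were dissected apart, and the p-values therefore reflect the spread among these arrays, which may be technical in part.

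Most numbered Zfp genes encode proteins with a row of C2H2 zinc fingers, each a short loop that holds a zinc ion and reads a few bases of DNA. Many of them also carry a KRAB domain, which recruits Trim28 and through it the histone methyltransferase Setdb1 and the HP1 proteins, and so silences the DNA the fingers bind, often transposable elements. The genes sit in clusters that arose by duplication. A number in the name says nothing of function: Zfp185 is a LIM-domain protein of the actin cytoskeleton, and Zfp622 and Zfp593 act in the assembly of ribosomes.

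The promoters of 5 members with large changes under KCl are shown. They were picked among genes whose control arrays at 0 and 3 h do not overlap, with a single promoter window in the RefSeq table and outside one chromosome that was not used. Among those, Zfp82, Zfp60 and Zfp94 had the largest falls at 3 h, and Zfp335 and Zfp667 the largest rises. These limits left out Zfp647, which fell more than Zfp94 at 3 h in control cultures. They also left out Zfp184 and Zfp516, which rose more than Zfp335, and Zfp248, which rose more than Zfp667. The number shown in each direction was chosen after the values were seen. Each is the 250 bases before the annotated start in RefSeq's GRCm38.p6, read 5′ to 3′ on the gene's strand. Capitals mark any match to the 4 motifs searched on both strands: TGANTCA (AP-1, bound by Fos and Jun), TGACGTCA (CRE, bound by Creb), CACGTG (E-box) and GCGTGGGCG (bound by Egr factors). Matches of different motifs may share letters at their ends.
Zfp82 (chr7:30072824-30073073, minus strand): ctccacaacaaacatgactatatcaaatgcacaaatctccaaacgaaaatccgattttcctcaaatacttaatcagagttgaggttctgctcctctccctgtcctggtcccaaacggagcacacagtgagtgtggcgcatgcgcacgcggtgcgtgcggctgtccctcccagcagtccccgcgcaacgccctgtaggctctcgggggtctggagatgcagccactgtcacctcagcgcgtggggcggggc
Zfp60 (chr7:27731159-27731408, plus strand): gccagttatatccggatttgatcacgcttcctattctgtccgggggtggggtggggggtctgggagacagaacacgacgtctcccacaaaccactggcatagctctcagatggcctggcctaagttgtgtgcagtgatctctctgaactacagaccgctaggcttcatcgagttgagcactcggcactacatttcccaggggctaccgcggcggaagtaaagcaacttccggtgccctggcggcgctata
Zfp94 (chr7:24316667-24316916, minus strand): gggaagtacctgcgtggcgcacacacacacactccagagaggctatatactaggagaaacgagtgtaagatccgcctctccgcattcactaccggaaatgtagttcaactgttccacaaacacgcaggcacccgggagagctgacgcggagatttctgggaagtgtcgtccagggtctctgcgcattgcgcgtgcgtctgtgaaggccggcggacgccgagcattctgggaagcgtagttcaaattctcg
Zfp335 (chr2:164911751-164912000, minus strand): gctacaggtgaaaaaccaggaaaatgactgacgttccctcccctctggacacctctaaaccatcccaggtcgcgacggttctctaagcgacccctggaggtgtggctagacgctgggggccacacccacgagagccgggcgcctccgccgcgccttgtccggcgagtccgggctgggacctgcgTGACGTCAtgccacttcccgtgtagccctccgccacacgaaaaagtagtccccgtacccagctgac
Zfp667 (chr7:6286330-6286579, plus strand): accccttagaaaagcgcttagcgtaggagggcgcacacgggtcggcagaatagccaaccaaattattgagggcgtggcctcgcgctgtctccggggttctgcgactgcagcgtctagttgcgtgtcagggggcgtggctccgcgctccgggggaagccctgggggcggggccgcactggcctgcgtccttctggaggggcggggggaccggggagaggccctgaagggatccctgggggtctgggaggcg
Only 1 of the 5 upstream windows held a match, the CRE of Zfp335, whose first letter lies 66 bases before the start. GC content was 57.6% for Zfp82, 56.8% for Zfp60, 56.4% for Zfp94, 63.6% for Zfp335 and 68.8% for Zfp667.

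RefSeq gave 193 promoter windows of 300 bases (250 before and 50 after the start) for 154 of the members, 122 of them with 1 window. The AP-1 letters were in 4.15% of the members' windows and in 7.81% of all 32851 windows of that length in the table. For the CRE the shares were 4.15% and 1.79%, for the E-box 4.15% and 7.15%, and for the Egr letters 0.518% and 0.612%. Windows of 1 gene can overlap, and each window was counted. Those of Zfp473 overlap and all hold the CRE letters, so 1 site may be counted more than once in the members' share. In the 98 windows of members lower at 3 h with both shRNAs, the AP-1 letters were in 4 and the CRE in 1. In the 49 windows of members called in no KCl comparison, they were in 3 and 4. The members' windows had a median of 17 CG dinucleotides against 7 over all windows, and a median GC content of 57% against 52.7%. A match is a run of letters and not a bound site, and these counts are too small to compare the groups of members.

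With KCl, the numbered Zfp genes moved down as a group, and most of them reached their lowest level at 3 h. In the control shRNA cultures, 113 of the 193 members fell and 11 rose at 3 h, in limma's test with p-values adjusted by Benjamini-Hochberg over all tested genes to a threshold of 0.05. Over all tested genes 19.3% fell and 11% rose. The median change of the members was -0.505 on the log2 scale against -0.053 for all tested genes, and 51 of those that fell were down at least 2-fold. The lower quartile of the members' changes was -1.04, while over all tested genes, called or not, the 3rd percentile was -1.06. At 6 h, 96 members fell (all genes 27.3%) and 17 rose (all genes 16.7%), with a median of -0.335 against -0.067. Changes are on the scale log2(intensity + 16) after quantile normalization, which understates those of dim genes. In such bulk samples fewer cells of a type and less RNA per cell cannot be told apart.

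By 1 h the fall was called in only a minority of members, although 153 of the 193 had a change below 0 in control cultures. Over all tested genes the 60th percentile of that change was -3e-04. In control cultures 20 members fell (all genes 0.819%) and 3 rose (all genes 2.3%), and the median member changed by -0.161 against -0.033 for all genes. The lower count was 50 with the replicate number as a block (all genes 3.61%), and the higher count 8 with the replicate number as a block (all genes 4.51%). Single arrays moved it as well: without replicate 1 or 2 at 0 h the lower count was 4 or 9, and without replicate 1 or 2 at 1 h it was 4 or 7.

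The direction was the same under the c-Fos shRNA. At 1 h 42 members fell (all genes 1.42%) and 2 rose (all genes 1.96%), at 3 h 98 fell (all genes 18.3%) and 9 rose (all genes 9.9%), and at 6 h 74 fell (all genes 24.9%) and 18 rose (all genes 16.1%). The medians of the members were -0.173, -0.406 and -0.193 at the 3 times, against -0.032, -0.065 and -0.060 for all genes. At 1 h the lower count was 66 with the replicate number as a block (all genes 4.24%) and the higher count 5 with the replicate number as a block (all genes 4.09%). Without c-Fos shRNA replicate 1 or 2 at 0 h the lower count at 1 h was 9 or 23, and without replicate 1 at 1 h it was 12. The higher count at 1 h was 1 without either replicate at 0 h or without replicate 1 at 1 h. At 6 h the higher count was 30 with the replicate number as a block (all genes 21.6%), and 11 without replicate 1 at 6 h.

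**Figure D1:**
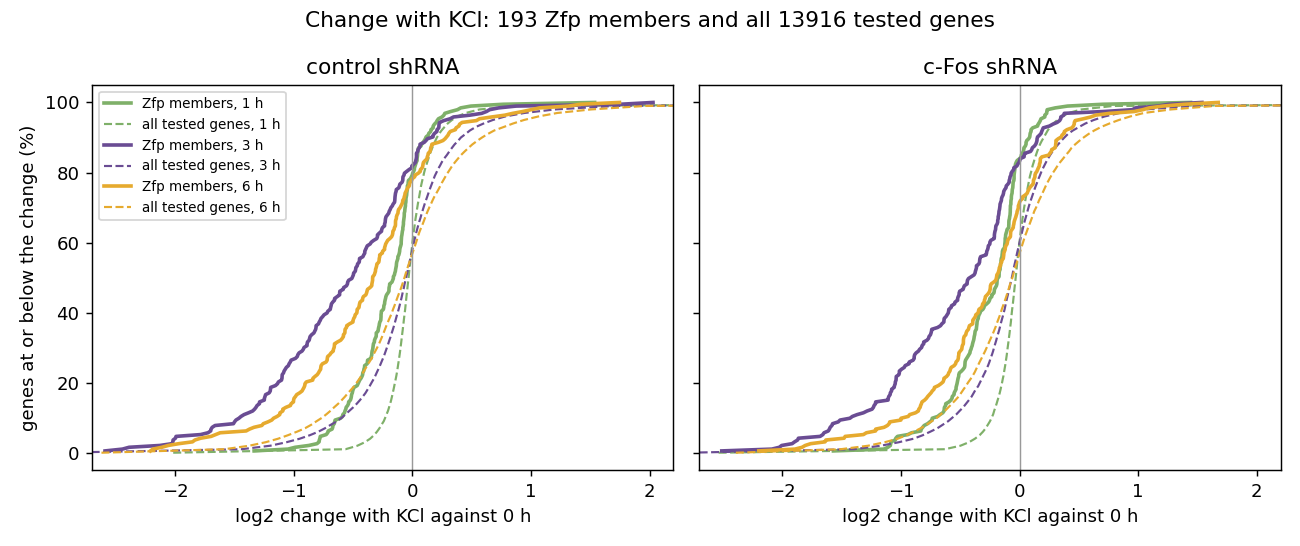
Share of genes (%) at or below each log2 change against 0 h, for the 193 Zfp members (solid lines) and all 13916 tested genes (dashed lines), at 1, 3 and 6 h of KCl with the control shRNA (left) and the c-Fos shRNA (right). The members' lines lie left of those of all genes, farthest at 3 h, where the medians are -0.505 and -0.406 against -0.053 and -0.065.

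Most members had their lowest group mean at 3 h. With the control shRNA, 110 of the members (57%) had their lowest mean at 3 h, against 20.4% of all tested genes, and 127 (65.8%) had their highest at 0 h, against 39.3%. Under the c-Fos shRNA, 109 members (56.5%) were lowest at 3 h, against 23.7%, and 126 (65.3%) highest at 0 h, against 39.5%. Across all tested genes the most frequent time of the lowest mean was 6 h, at 37.3% and 36.1%, while 22.3% and 14% of the members were lowest then.

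Part of the loss was regained by 6 h. Between 3 and 6 h, 52 members rose (all genes 7.95%) and 8 fell (all genes 9.01%) with the control shRNA, and 55 rose (all genes 8.97%) and 6 fell (all genes 8.16%) with the c-Fos shRNA. Of the 113 members lower at 3 h in control cultures, 47 then rose, and 43 of the 98 did so with the c-Fos shRNA. Of the same 113, 89 were still called lower at 6 h. Here the fall and the later rise share the arrays at 3 h, so a low reading there favours both. The calls at 3 and 6 h share the arrays at 0 h. Such counts were not made over all tested genes. Leaving out single arrays moved the counts of members called between 3 and 6 h. The control rise was 23, 27, 28 or 31 without replicate 1 or 2 at 3 h or 1 or 2 at 6 h. The c-Fos rise was 35 without replicate 2 at 3 h and 27 without replicate 1 at 6 h. The control fall was 5 or 4 without replicate 1 or 2 at 3 h and 4 without replicate 1 at 6 h, and the c-Fos fall was 3 without replicate 1 at 6 h. The control fall was 16 with the replicate number as a block (all genes 18.2%), and the c-Fos rise 83 with the replicate number as a block (all genes 16.6%).

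Single genes show how deep the fall went. Zfp82 read 387 and 388 at 0 h, 215 and 276 at 1 h, 42.5 and 59.0 at 3 h, then 68.1 and 84.7 at 6 h with the control shRNA, in the deposited intensity units, replicate 1 first. Its arrays at 3 and 6 h lie far below those at 0 h, with no overlap, and the change was -2.59 ± 0.22 (SE; adjusted p = 2.97e-06) at 3 h. In c-Fos shRNA cultures the gene read 412 and 518 at 0 h, 183 and 255 at 1 h, 88.7 and 139.6 at 3 h, then 92.0 and 149 at 6 h, and changed by -1.86 ± 0.22 (SE; adjusted p = 4.85e-05) at 3 h. Both cultures lost most of the signal by 3 h and regained little of it. Averaged over all its probe sets in place of the brightest one, its changes at 3 h were -1.11 (adjusted p = 0.00119) and -1.004 (adjusted p = 0.00263).

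Zfp60, a KRAB zinc finger gene, read 945 and 876 at 0 h, 674 and 643 at 1 h, 136 and 173 at 3 h, then 221 and 248 at 6 h in control cultures. All arrays with KCl lie below both at 0 h, and the change was -2.44 ± 0.13 (SE; adjusted p = 5.92e-08) at 3 h and -1.85 ± 0.13 (SE; adjusted p = 3.48e-07) at 6 h. Zfp647 read 2270.4 and 1970.4 at 0 h, 1385 and 1394 at 1 h, 422 and 359 at 3 h, then 839.6 and 716 at 6 h, and 1744 and 1805 at 0 h, 865 and 862 at 1 h, 284 and 308 at 3 h, then 627 and 603 at 6 h with the c-Fos shRNA. It was down at every time, lowest at 3 h, and rose again from 3 to 6 h by 0.99 ± 0.12 (SE; adjusted p = 0.00019) with the control and 1.04 ± 0.12 (SE; adjusted p = 0.000182) with the c-Fos shRNA.

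Other members with the largest falls at 3 h in control cultures, all with arrays that do not overlap those at 0 h, were Zfp94 -2.13 ± 0.22, Zfp39 -2.03 ± 0.17, Zfp493 -2.02 ± 0.21 and Zfp14 -2.02 ± 0.21, each ± SE. They were followed by Zfp213 -1.998 ± 0.19, Zfp467 -1.99 ± 0.12, Zfp229 -1.79 ± 0.13, Zfp157 -1.72 ± 0.079 and Zfp54 -1.70 ± 0.16. Zfp467 encodes a factor that steers precursors between bone and fat. Adjusted p-values of these 9 ran from 2.1e-08 (Zfp157) to 1.57e-05 (Zfp14). Averaged over all probe sets, Zfp493 changed by -1.09 (adjusted p = 9.07e-05) and Zfp213 by -0.99 (adjusted p = 0.000509). Zfp94 changed by -1.41 with a pseudocount of 64. At 3 h with the c-Fos shRNA the largest falls were Zfp647 -2.51 ± 0.12, Zfp94 -2.09 ± 0.22, Zfp213 -2.02 ± 0.19 and Zfp688 -2.005 ± 0.18. Zfp213 changed there by -1.21 (adjusted p = 0.000132) with the mean of its probe sets.

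A few members went on falling after 3 h. Zfp239, also known as Mok2, whose zinc fingers bind DNA and RNA, read 913 and 866 at 0 h, 836 and 906 at 1 h, 347 and 375 at 3 h, then 155 and 199.8 at 6 h with the control shRNA. Little moved at 1 h, and from 3 to 6 h it fell further by 0.96 ± 0.13 (SE; adjusted p = 0.00052) in control cultures. With the c-Fos shRNA it read 773 and 861 at 0 h, 713 and 705 at 1 h, 230.5 and 311 at 3 h, then 154 and 165 at 6 h, and its change from 3 to 6 h was -0.69 ± 0.13 (SE; adjusted p = 0.0042). Zfp326, part of a complex that links RNA polymerase II to splicing, read 2211 and 2159 at 0 h, 2271 and 2244 at 1 h, 1873 and 1917 at 3 h, then 1048 and 1085 at 6 h in control cultures, a change of -0.78 ± 0.066 (SE; adjusted p = 3.93e-05) between 3 and 6 h. Zfp512 and Zfp367 also fell in that interval with both shRNAs, the call for Zfp367 with the c-Fos shRNA being lost without any 1 of 3 arrays (adjusted p up to 0.157).

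The largest fall at 1 h was that of Zfp87 in control cultures and that of Zfp40 with the c-Fos shRNA. Zfp87 read 517 and 460.0 at 0 h, 170.2 and 206 at 1 h, 194 and 171 at 3 h, then 328 and 329 at 6 h in control cultures and 389.8 and 436 at 0 h, 182 and 168 at 1 h, 222 and 241 at 3 h, then 359.7 and 349 at 6 h with the c-Fos shRNA. With both shRNAs the arrays at 1 h lie far below those at 0 h, and its change at 1 h was -1.33 ± 0.12 (SE; adjusted p = 2.83e-05) and -1.14 ± 0.12 (SE; adjusted p = 0.000123). Zfp157 read 1614 and 1578 at 0 h, then 976 and 974 at 1 h in control cultures, a change of -0.78 ± 0.079 (SE; adjusted p = 6.45e-05). Zfp37 changed at 1 h by -0.94 ± 0.10 (SE; adjusted p = 0.000164) with the c-Fos shRNA, and by -0.38 ± 0.10 (SE; adjusted p = 0.0831) with the control. Zfp37 was called with the control too under the replicate block (adjusted p = 0.0166). Under the c-Fos shRNA it changed by -0.51 (adjusted p = 0.0186) with the mean of its probe sets. Zfp40 read 900.4 and 1017 at 0 h, then 377 and 272 at 1 h with the c-Fos shRNA, a change of -1.57 ± 0.25 (SE; adjusted p = 0.00344) whose call no left-out array ended. The mean of its probe sets changed by -0.92 (adjusted p = 0.0279). In control cultures it changed by -1.05 ± 0.25 (SE; adjusted p = 0.0461), a call that ends when any 1 of the 4 arrays is left out (adjusted p = 0.145 to 0.271) and with 5 other settings.

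Few members rose. Zfp184, a KRAB zinc finger gene, read 218 and 209 at 0 h, 822 and 549 at 1 h, 1097 and 721 at 3 h, then 625 and 434 at 6 h in control cultures, so every array with KCl lies above both at 0 h, although replicate 1 is far above replicate 2 at each time with KCl. Its change was 1.54 ± 0.27 (SE; adjusted p = 0.0067) at 1 h and 2.03 ± 0.27 (SE; adjusted p = 0.000112) at 3 h. With the c-Fos shRNA it read 189 and 194 at 0 h, 689.8 and 468 at 1 h, 682 and 479.9 at 3 h, then 398 and 358 at 6 h. The call at 1 h in control cultures ends without replicate 2 at 0 h (adjusted p = 0.0565) or replicate 1 at 1 h (adjusted p = 0.108).

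Zfp516, a transcription factor known from brown fat, read 158 and 167 at 0 h, 164 and 173 at 1 h, 549 and 564 at 3 h, then 544 and 541 at 6 h in control cultures and 153 and 187 at 0 h, 147 and 175 at 1 h, 413 and 427 at 3 h, then 466 and 447 at 6 h with the c-Fos shRNA. Arrays at 1 h overlap those at 0 h with both shRNAs, those at 3 and 6 h lie far above both, and the gene changed at 3 h by 1.75 ± 0.10 (SE; adjusted p = 1.69e-07) and 1.26 ± 0.10 (SE; adjusted p = 2.96e-06). The name of its probe set carries the suffix for probes that may bind other transcripts. A second probe set of the gene, without that suffix, gave 1.19 ± 0.17 (SE) at 3 h in control cultures, with an adjusted p of 0.000268 in limma's fit over probe sets.

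Zfp335, part of a histone H3K4 methyltransferase complex that neural progenitors need, read 318 and 383 at 0 h, 376 and 405 at 1 h, 649 and 604 at 3 h, then 904 and 907 at 6 h in control cultures. Arrays at 3 and 6 h lie above all at 0 and 1 h, and the change was 1.42 ± 0.12 (SE; adjusted p = 2.35e-06) at 6 h. With the c-Fos shRNA it read 323 and 392 at 0 h, 394 and 514 at 1 h, 831 and 746 at 3 h, then 1104 and 1175 at 6 h, a change of 1.68 ± 0.12 (SE; adjusted p = 8.72e-07). Zfp131, which has a BTB domain, read 1941 and 1811 at 0 h, 3469 and 3081 at 1 h, 2997 and 2943 at 3 h, then 2901 and 2656 at 6 h in control cultures, highest at 1 h. In all, 14 of the 193 members and 1692 of the 13916 tested genes were called higher at 6 h with both shRNAs. Among these members were Zfp248, Zfp513 and Zfp667, higher by 1.07, 0.85 and 0.78 in control cultures. Of the 193 members 21 rose in at least 1 of the 6 KCl comparisons (all genes 21.9%), 126 fell in at least 1 (all genes 35.8%), and 47 were called in none (all genes 43.3%).

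**Figure D2:**
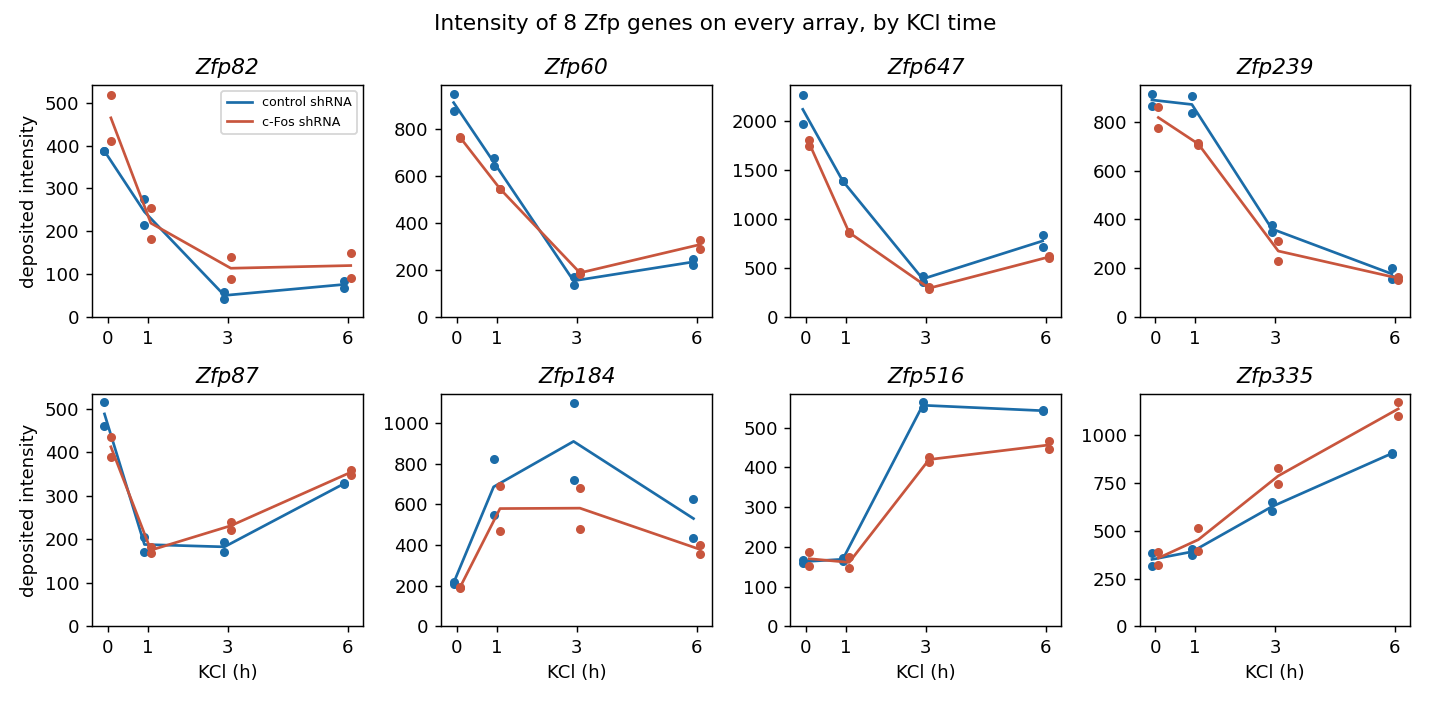
Deposited intensity (y axis, from 0) of 8 Zfp genes on each array against hours of KCl, blue for the control and red for the c-Fos shRNA. Points are arrays and lines join the means of 2 arrays. Zfp82, Zfp60, Zfp647 and Zfp239 fall, Zfp87 is low by 1 h, and Zfp184, Zfp516 and Zfp335 rise.

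The arms with the control and the c-Fos shRNA share no arrays, and their calls at one time were set against each other. These calls are not independent, since the spread of each gene is estimated over all arrays of both arms. Same-numbered arrays of the arms also deviate together. At 3 h, 96 members fell with both, which is 85% of the 113 in control cultures and 98% of the 98 with the c-Fos shRNA. At 6 h it was 68, or 70.8% of 96 and 91.9% of 74, and at 1 h 19, or 95% of 20 and 45.2% of 42. For rises at 3 h it was 8, or 72.7% of 11 and 88.9% of 9. Among all tested genes, the shares of genes lower in control and in c-Fos cultures that were lower in both were 74.5% and 78.4% after 3 h of KCl. They were 75.1% and 82.4% after 6 h and 69.3% and 40.1% after 1 h. The same shares for rises after 3 h were 70.9% and 78.6%. Whether these shares differ from the members' was not tested. Zfp597 was the 1 member called in opposite directions: at 3 h it changed by -0.23 ± 0.081 (SE; adjusted p = 0.0452) with the control and 0.32 ± 0.081 (SE; adjusted p = 0.0107) with the c-Fos shRNA. Its second brightest probe set gave -0.45 ± 0.10 and -0.004 ± 0.10 there, both ± SE. The call in control cultures ends without replicate 1 at 0 h or either replicate at 3 h (adjusted p = 0.118 to 0.307). The call with the c-Fos shRNA ends without replicate 1 at 0 h or 2 at 3 h (adjusted p = 0.0568 to 0.0775). Both end with the mean of all probe sets, at -0.23 (adjusted p = 0.145) and 0.006 (adjusted p = 0.978). This gene was singled out after its values were seen.

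**Figure D3:**
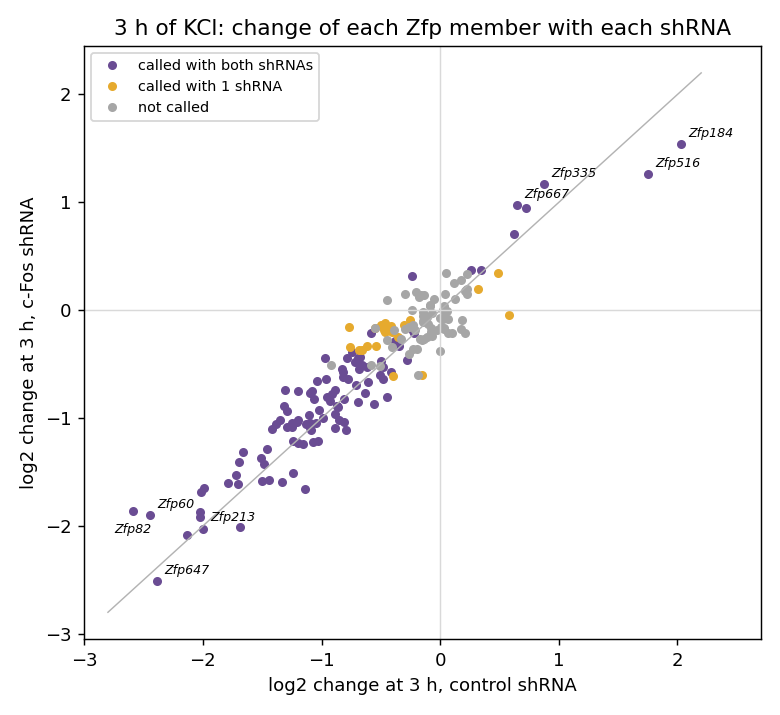
Log2 change at 3 h of KCl of each of the 193 Zfp members with the control shRNA (x axis) and the c-Fos shRNA (y axis), purple where called with both, yellow with 1 and grey with none. The line marks equal change. Of the purple points, 96 lie below 0 on both axes and 8 above 0 on both.

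The share of members that fell was high at every level of signal. Among the 19 members with a mean of 6 to 7, 57.9% fell at 3 h in control cultures, against 6.52% of all tested genes of that level. From 7 to 8 it was 67.6% of 37 against 17.8%, from 8 to 9 it was 61.5% of 39 against 26.1%, and at 9 and over 54.1% of 98 against 22.8%. The median change was largest from 7 to 8, at -1.05, and smallest at 9 and over, at -0.369. These are levels of signal on the array and cannot be compared between genes as amounts of RNA.

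The same direction was seen in related genes with other names. Of 102 tested genes named Zfp with a number from 700 up, Zscan or Zkscan, 70 fell at 3 h in control cultures (68.6%, all genes 19.3%), 53 at 6 h (52%, all genes 27.3%) and 65 at 3 h with the c-Fos shRNA (63.7%, all genes 18.3%). Whether these shares differ from the members' was not tested.

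Many members lie next to each other. By RefSeq's gene order, 62 of the 193 have another member as their next protein-coding gene, and they form 39 adjacent pairs. In 22 of the pairs both genes fell at 3 h in control cultures, in 12 only 1 fell and the other was not called, and in 3 the neighbours were called in opposite directions. Pairs of other adjacent genes were not counted, and over all members 58.5% fell at that time. Of members with a member next to them, 72.6% fell at 3 h in control cultures (all genes 19.3%). With the c-Fos shRNA 62.9% did (all genes 18.3%), and the medians were -0.819 and -0.647. Of the other 131 members, 51.9% and 45% fell, with medians of -0.395 and -0.328. The difference between these shares was not tested.

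The longest row was Zfp420, Zfp27, Zfp383, Zfp74, Zfp568, Zfp14, Zfp82 and Zfp566. Of its genes 5 fell at 3 h with each shRNA (all genes 19.3% with the control and 18.3% with the c-Fos shRNA). In control cultures none rose, and changes ran from -2.59 (Zfp82) to 0.064. In the row Zfp677, Zfp54, Zfp51, Zfp53 and Zfp52, 4 fell at 3 h in control cultures while Zfp52 rose by 0.58 ± 0.20 (SE; adjusted p = 0.0481), a call that ends without replicate 1 at 0 h (adjusted p = 0.286) or either replicate at 3 h (adjusted p = 0.0906 and 0.205), and with the mean of its probe sets (0.069, adjusted p = 0.835), 1 of 5 other settings that end it. The row Zfp667, Zfp583, Zfp78 and Zfp28 held 1 that rose (Zfp667), 2 that fell and Zfp28, which was not called. All of Zfp93, Zfp61 and Zfp94 fell with both shRNAs.

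Of 3 tested genes that guard imprints or silence embryonic genes, 1 fell and none rose at 3 h in control cultures, where over all tested genes 19.3% fell and 11% rose. The list medians at 3 h were -0.261 for these genes, -0.168 for neural and cell fate factors, -0.301 for widely expressed promoter and chromatin factors and 0.022 for those that act on RNA, translation or the spindle, against -0.053 over all tested genes. Zfp445, which protects imprinted methylation, read 5050.2 and 5376 at 0 h, 5196 and 5611 at 1 h, 3795 and 4475 at 3 h, then 3812 and 4278 at 6 h in control cultures, and arrays at 3 and 6 h lie below those at 0 h, with a change at 3 h of -0.38 ± 0.078 (SE; adjusted p = 0.0025). Its call is lost with the mean of its probe sets (-0.34, adjusted p = 0.103). Zfp57, its partner in that task, changed by 0.034 ± 0.13 (SE; adjusted p = 0.896), and Zfp568, which represses a placental form of Igf2, by -0.26 ± 0.17 (SE; adjusted p = 0.291), and neither was called.

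Of 10 tested neural and cell fate factors, 9 of them members and the other Zbtb18, 4 fell and 1 rose (Zfp335) at 3 h in control cultures. Zfp462, a heterochromatin factor, read 4698 and 4022 at 0 h, 4399 and 4078 at 1 h, 2481 and 2268 at 3 h, then 2589.8 and 2095 at 6 h in control cultures and changed by -0.91 ± 0.14 (SE; adjusted p = 0.000374) at 3 h, with no overlap. Zfp292 and Zfp24 were also called lower at 3 h, at -0.47 and -0.36 on the log2 scale, calls lost without replicate 1 at 3 h (adjusted p = 0.0623 and 0.112), and for Zfp292 without replicate 1 and for Zfp24 without replicate 2 at 0 h (adjusted p = 0.0769 and 0.149). Both are also lost with the mean of all probe sets, at -0.30 (adjusted p = 0.202) and -0.13 (adjusted p = 0.382). Zfp536, a repressor of neuronal differentiation, read 804 and 599 at 0 h, 875 and 606 at 1 h, 938 and 627 at 3 h, then 1684 and 1119 at 6 h and was called higher at 6 h, by 1.00 ± 0.31 (SE; adjusted p = 0.0206), with replicate 1 above replicate 2 at every time and a call lost without replicate 2 at 0 h (adjusted p = 0.144) or replicate 1 at 6 h (adjusted p = 0.173). With the replicate block its adjusted p was 2.21e-08. Zfp423, Zfp521 and Zfp503 were not called with KCl in control cultures at 3 or 6 h. With the replicate block Zfp503 was, at -0.29 and -0.25 (adjusted p = 0.0141 and 0.0261), and so was Zfp423 at 6 h, at -0.28 (adjusted p = 0.00231). Zfp503 was also called at 3 h with the mean of its probe sets, at -0.51 (adjusted p = 0.0447).

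Of 9 widely expressed promoter and chromatin factors, 5 fell at 3 h in control cultures and none rose. Zfp148, which binds GC-rich promoters, read 2218 and 2241 at 0 h, 2178 and 2046 at 1 h, 1333 and 1445 at 3 h, then 1280.3 and 1324 at 6 h, and its arrays at 3 and 6 h lie well below the rest, a change of -0.69 ± 0.080 (SE; adjusted p = 3.52e-05) at 3 h. Its calls end with the mean of all its probe sets, at -0.29 (adjusted p = 0.0818) at 3 h and -0.24 (adjusted p = 0.114) at 6 h. Zfp384 changed by -0.71 ± 0.095 (SE; adjusted p = 0.000102), Zfp644, a partner of the H3K9 methyltransferase G9a, by -0.76 ± 0.12 (SE; adjusted p = 0.000338) and Zfp410 by -0.50 ± 0.084 (SE; adjusted p = 0.00064). Averaged over all probe sets these were -0.43 (adjusted p = 0.0406) for Zfp644 and -0.32 (adjusted p = 0.115) for Zfp410, whose call ends. Zfp451, a SUMO ligase, changed by -0.30 ± 0.068 (SE; adjusted p = 0.00466), a call lost without replicate 1 at 0 h (adjusted p = 0.053), after a median shift of every array (adjusted p = 0.0509) and with the mean of its probe sets (-0.15, adjusted p = 0.247). Zfp217, Zfp219, Zfp281 and Zfp91 were not called at 3 h, although Zfp281 was with the replicate block, at -0.18 (adjusted p = 0.0287). It was also called with the mean of its probe sets (-0.28, adjusted p = 0.0146) and without replicate 2 at 0 h (adjusted p = 0.0468).

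Of 6 members that act on RNA, translation or the spindle, 2 fell and none rose at 3 h in control cultures, namely Zfp326 and Zfp346. At 3 h Zfp326 changed by -0.23 ± 0.066 (SE; adjusted p = 0.0198), a call that ends without any 1 of the 4 arrays (adjusted p = 0.0568 to 0.105) and after a median shift of every array (adjusted p = 0.109). That of Zfp346, -0.51 ± 0.13 (SE; adjusted p = 0.0083), ends without replicate 2 at 0 h (adjusted p = 0.0894) or replicate 1 at 3 h (adjusted p = 0.076). Zfp346, which binds double-stranded RNA, read 2225 and 2642 at 0 h, 2147 and 2543 at 1 h, 1626 and 1828 at 3 h, then 1192 and 1295 at 6 h and changed by -0.95 ± 0.13 (SE; adjusted p = 6.32e-05) at 6 h. Its arrays at 6 h lie below all others. Zfp598, a ubiquitin ligase that senses collided ribosomes, changed by 0.36 ± 0.11 (SE; adjusted p = 0.0213) at 6 h, a call lost without replicate 1 at 0 h (adjusted p = 0.109) or replicate 2 at 6 h (adjusted p = 0.184). Zfp106, Zfp207 and Zfp638 were not called at 3 or 6 h in control cultures. Under other settings Zfp106 was called higher at 6 h, with the replicate block (0.15, adjusted p = 0.0245), after a median shift of every array (0.19, adjusted p = 0.0301) and with the mean of its probe sets, at 0.41 (adjusted p = 0.0138). The shift also brought Zfp106 at 3 h to the threshold (adjusted p = 0.05), and Zfp207 was called lower at 6 h without replicate 2 at 6 h (adjusted p = 0.0165). Of the partners of the neurotrophin receptor p75, Zfp110 read 748 and 725 at 0 h, 638 and 699.8 at 1 h, 317 and 378 at 3 h, then 535 and 568 at 6 h and changed by -1.02 ± 0.10 (SE; adjusted p = 1.19e-05) at 3 h, with arrays at 6 h between those at 0 and 3 h. Zfp369 changed by -0.14 ± 0.097 (SE; adjusted p = 0.326), and by -0.41 (adjusted p = 0.196) with the mean of its probe sets.

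Among members with a mean of at least 8, those with the smallest change in any KCl comparison were Zfp91, Zfp692, Zfp638, Zfp28 and Zfp106, whose largest absolute log2 changes were 0.115, 0.125, 0.133, 0.135 and 0.149. For Zfp106 this rests on its brightest probe set, since the mean of its probe sets gave the called rise at 6 h above. Zfp91, a ubiquitin ligase, read 1369.9 and 1788 at 0 h, 1456 and 1681 at 1 h, 1302 and 1639 at 3 h, then 1487 and 1686 at 6 h in control cultures, with arrays of all times overlapping. Zfp692 read 537 and 842 at 0 h, 514 and 850.3 at 1 h, 490.1 and 752 at 3 h, then 479 and 881 at 6 h, with replicate 2 above replicate 1 at every time. Without the replicate block its small change therefore had a wide error, ± 0.38 (SE) at 3 h. From 0 to 3 h replicate 1 went from 537 to 490.1 and replicate 2 from 842 to 752.

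The partners through which KRAB proteins silence DNA were measured too. Of 19 tested genes in that list, 6 fell and none rose at 3 h in control cultures (all genes 19.3% and 11%), 10 fell and 1 rose at 6 h (all genes 27.3% and 16.7%), and 5 fell and none rose at 3 h with the c-Fos shRNA (all genes 18.3% and 9.9%). Those that fell at 3 h in control cultures were Atf7ip -1.22 ± 0.091, Fam208a -1.09 ± 0.13, Smarcad1 -0.87 ± 0.066, Morc3 -0.66 ± 0.066, Setdb1 -0.53 ± 0.092 and Morc2a -0.49 ± 0.085, each ± SE. Setdb1 writes H3K9 methylation, Atf7ip protects it, and Fam208a (Tasor) is a subunit of the HUSH silencing complex. Trim28 itself changed by 0.034 ± 0.047 (SE; adjusted p = 0.674) and was not called. The list's median was -0.168 at 3 h against -0.053 for all tested genes.

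The c-Fos shRNA was set against the control shRNA at each time. Fos, its target, read 14633 and 14719 at 1 h on the control arrays and 7728 and 9623 on the c-Fos arrays, and was lower with the c-Fos shRNA at every time. On the average of the 4 times, 57 members were lower (all genes 22.7%) and 35 higher (all genes 25.2%) with the c-Fos shRNA, which is 29.5% and 18.1% of the members. The 18S ribosomal control at its 3′ probe set read 4805 to 5602 on control arrays and 3839 to 4558 on c-Fos arrays, with no overlap. Cell type markers differed between the shRNAs as well. On the average of the times 6 lower and 3 higher of 9 neuronal markers were called. For other lists the calls were 2 lower and 2 higher of 5 tested of excitatory neurons, 1 lower and 0 higher of 5 of inhibitory neurons and 3 lower and 1 higher of 7 of astrocytes. They were 1 lower and 0 higher of 6 of the oligodendrocyte lineage and 2 lower and 1 higher of 6 of progenitors and dividing cells, and no tested marker of microglia or of vascular cells and fibroblasts was called. The list medians were -0.075 for neuronal, 0.142 for excitatory, 0.039 for inhibitory and -0.101 for astrocyte markers, against 0.018 over all tested genes. The summed neuronal markers ran from 75878 to 88456 on control arrays and 71103 to 82392 on c-Fos arrays, the excitatory ones from 16844 to 19093 and 14041 to 18219, and the astrocyte ones from 16868 to 22353 and 14814 to 19593. The part of the 18S control and of these markers in the Zfp differences was not tested.

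At single times, the share of members that were lower ran from 6.74% at 6 h to 21.8% at 1 h. At 0 h 25 members were lower (all genes 10.3%) and 12 higher (all genes 12%). At 1 h 42 members were lower (all genes 9.98%) and 9 higher (all genes 10.8%). At 3 h 24 members were lower (all genes 10.9%) and 24 higher (all genes 12.4%). At 6 h 13 members were lower (all genes 10.4%) and 22 higher (all genes 13.4%). With the replicate block the lower and higher counts at 0 h were 43 (all genes 18.4%) and 20 (all genes 20.3%), the higher count at 1 h was 17 (all genes 19.4%), the lower count at 3 h was 41 (all genes 19.9%), and the counts at 6 h were 26 (all genes 18.8%) and 40 (all genes 22.7%). Single arrays moved these counts as well: the lower count at 0 h was 15 without control replicate 1 and the higher count 7 without c-Fos replicate 1. At 1 h the lower count was 23 without c-Fos replicate 1, 25 without control replicate 1 and 24 without control replicate 2, and the higher count 5 without control replicate 2. At 3 h the lower count was 15 without replicate 1 of either shRNA, and the higher count was 12 or 13 without c-Fos replicate 1 or 2 and 9 without control replicate 1. At 6 h the lower count was 6 without c-Fos replicate 2 and 7 without control replicate 1, and the higher count 13 without c-Fos replicate 1.

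Most of the largest differences were already called at 0 h, though not all of these calls were firm. In limma's fit to the mean of all probe sets, 3 of the calls at 0 h ended. They were those of Zfp185 (-0.49, adjusted p = 0.0786), Zfp81 (-0.53, adjusted p = 0.0513) and Zfp46 (0.16, adjusted p = 0.459). The call of Zfp185 at 0 h also depended on single arrays. Zfp580, a small zinc finger protein known from vascular cells, read 197 and 253 at 0 h, 155 and 216 at 1 h, 96.7 and 150.1 at 3 h, then 144 and 200.4 at 6 h with the control shRNA. Under the c-Fos shRNA it read 766 and 817 at 0 h, 741 and 832 at 1 h, 708 and 661 at 3 h, then 526 and 622 at 6 h. All 8 c-Fos arrays lie above all 8 control arrays, and the difference was 1.77 ± 0.20 (SE; adjusted p = 5.84e-05) at 0 h and 1.96 ± 0.10 (SE; adjusted p = 1.39e-08) on the average of the times.

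Zfp644 read 1575 and 1406 at 0 h, 1512 and 1460.3 at 1 h, 916 and 828 at 3 h, then 946 and 886 at 6 h with the control and 3356 and 3100.3 at 0 h, 3192 and 2855 at 1 h, 2809.8 and 2376 at 3 h, then 2274 and 1946 at 6 h with the c-Fos shRNA, again with no overlap between the arms. The difference on the average of the times was 1.22 ± 0.059 (SE; adjusted p = 8.33e-09). Its probe set has the suffix for shared sequence, and of 5 tested probe sets 3 were called higher with the c-Fos shRNA, at 1.22, 1.29 and 1.24, and 2 were not, at 0.58 and 0.21. Zfp91 read 3022 and 2957 at 0 h, 2949.7 and 2872 at 1 h, 2826 and 3033 at 3 h, then 2902 and 3096 at 6 h with the c-Fos shRNA, above every control array given earlier, a difference of 0.94 ± 0.064 (SE; adjusted p = 1.43e-07). A second of its 3 tested probe sets gave 0.872 ± 0.10 (SE) and the third 0.050 ± 0.22 (SE), and their mean 0.57 (adjusted p = 6.23e-05).

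Zfp622, which helps to mature the large ribosomal subunit, read 2706 and 2832 at 0 h, 3486 and 3920.3 at 1 h, 3585 and 3628 at 3 h, then 3909 and 3748 at 6 h with the control and 4327 and 4509 at 0 h, 5013 and 5469.7 at 1 h, 5786 and 5824 at 3 h, then 5658 and 5436 at 6 h with the c-Fos shRNA. It was higher on every c-Fos array, by 0.60 ± 0.031 (SE; adjusted p = 1.3e-08). Its probe set also has a shared-sequence suffix, and a second one without it gave 0.807 ± 0.054 (SE). Zfp593, another ribosome assembly factor, was higher by 0.60 ± 0.065 (SE; adjusted p = 9.26e-06). The rest of the 8 largest higher differences were Zfp229 0.57 ± 0.066, Zfp619 0.56 ± 0.092 and Zfp46 0.56 ± 0.037, each ± SE. Zfp46 was 0.26 (adjusted p = 0.00565) higher with the mean of its probe sets.

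Of 10 tested neural and cell fate factors, 5 were lower and 3 higher with the c-Fos shRNA on the average of the times, with a median of -0.108 against 0.018 over all tested genes. Those higher were Zfp292 0.47 ± 0.059, Zfp335 0.22 ± 0.062 and Zbtb18 0.089 ± 0.026, each ± SE. Zfp292 was 0.22 (adjusted p = 0.0381) higher with the mean of its probe sets. Zfp423, the lowest of that list and a partner of the Ebf factors that cerebellar and olfactory precursors need, read 1491 and 1269 at 0 h, 1482 and 1342 at 1 h, 1569 and 1319 at 3 h, then 1192 and 1046 at 6 h with the control and 790.3 and 732 at 0 h, 762 and 724 at 1 h, 798 and 669 at 3 h, then 535 and 522 at 6 h with the c-Fos shRNA. No c-Fos array reaches a control array, and the difference was -0.94 ± 0.067 (SE; adjusted p = 2.19e-07). Zfp503, known from the developing striatum, differed by -0.88 ± 0.093 (SE; adjusted p = 6.76e-06), and Zfp281, a repressor at pluripotency genes, by -0.62 ± 0.039 (SE; adjusted p = 8.36e-08). Zfp185 differed by -1.23 ± 0.12 (SE; adjusted p = 3.15e-06) and Zfp37 by -0.93 ± 0.052 (SE; adjusted p = 2.92e-08). Averaged over all probe sets they differed by -0.66 (adjusted p = 6.73e-05) and -0.61 (adjusted p = 2.05e-06). The 8 largest lower differences also held Zfp618 -0.93 ± 0.071, Zfp81 -0.89 ± 0.088, Zfp120 -0.71 ± 0.057 and Zfp597 -0.68 ± 0.041, each ± SE. Zfp81 was -0.51 (adjusted p = 0.000406) with the mean of its probe sets.

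**Figure D4:**
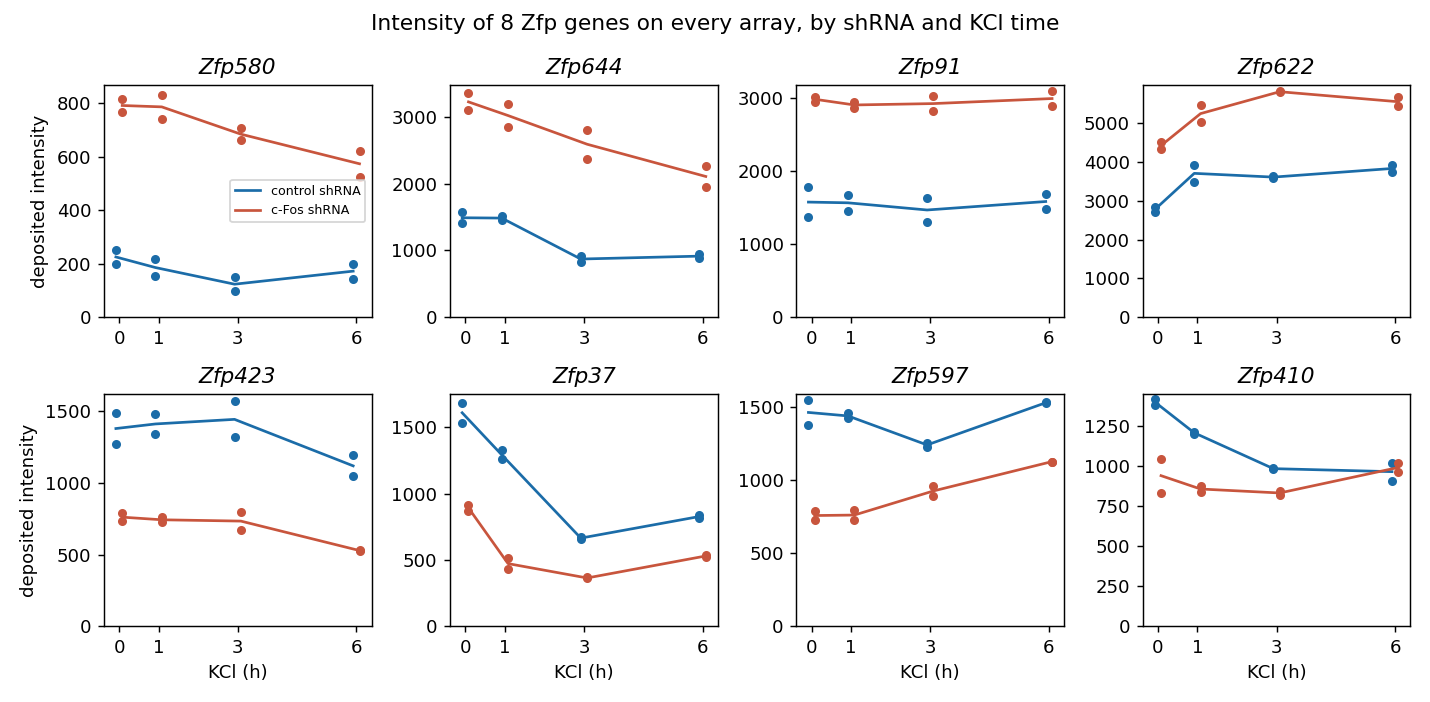
Deposited intensity (y axis, from 0) of 8 Zfp genes on each array against hours of KCl, blue for the control and red for the c-Fos shRNA, with points for arrays and lines through the means of 2. Zfp580, Zfp644, Zfp91 and Zfp622 are higher and Zfp423, Zfp37 and Zfp597 lower on every c-Fos array than on the control arrays of the same time, and the arms of Zfp410 meet at 6 h.

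Whether the change with KCl differed between the shRNAs was tested as an interaction, the change with the c-Fos shRNA minus that with the control. At 1 h limma called no member lower (all genes 0.0359%) and none higher (all genes 0.00719%), with 6 lower and 1 higher at an unadjusted p under 0.05. At 3 h it called none lower (all genes 0.273%) and none higher (all genes 0.129%), with 5 and 16 at an unadjusted p under 0.05. At 6 h none was lower (all genes 0.783%) and 2 were higher (all genes 0.453%), with 1 and 30 unadjusted. With the replicate block the 1 h counts were again 0, at 3 h 1 member was lower (all genes 2.04%) and 5 higher (all genes 1.96%), and at 6 h 2 were lower (all genes 5.63%) and 19 higher (all genes 5.71%). Without single arrays the higher count at 6 h was 1 without replicate 2 at 0 h of either shRNA, and 0 without replicate 1 at 0 h or either replicate at 6 h of either shRNA.

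The 2 members called at 6 h were Zfp410 and Zfp597. Zfp410, whose human counterpart activates the chromatin remodeller gene CHD4, read 1385 and 1423 at 0 h, 1215 and 1206 at 1 h, 991 and 982 at 3 h, then 910.1 and 1025 at 6 h with the control and 835 and 1049 at 0 h, 843 and 875 at 1 h, 820.1 and 848 at 3 h, then 965 and 1022 at 6 h with the c-Fos shRNA. Control arrays drop with KCl to the level of the c-Fos arrays, which at 6 h overlap those at 0 h, and the interaction was 0.61 ± 0.12 (SE; adjusted p = 0.0326). Averaged over all its probe sets, Zfp410 differed between the shRNAs by -0.099 (adjusted p = 0.278) on the average of the times. Chd4, not a member, differed between the shRNAs by -0.43 ± 0.038 (SE; adjusted p = 1.63e-06) on the average of the times. It is 1 of the 19 silencing partners listed earlier, of which 8 were higher (all genes 25.2%) and 4 lower (all genes 22.7%). Their median was 0.063 against 0.018 for all tested genes. A link between Zfp410 and Chd4 was not tested. Zfp597 read 1550.3 and 1379.8 at 0 h, 1424 and 1458 at 1 h, 1258 and 1227 at 3 h, then 1535 and 1528 at 6 h with the control and 725 and 793 at 0 h, 726 and 798 at 1 h, 894 and 959.9 at 3 h, then 1129 and 1128 at 6 h with the c-Fos shRNA. Its c-Fos arrays start lower and climb with KCl, staying below the control arrays, and the interaction was 0.53 ± 0.12 (SE; adjusted p = 0.0476).

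A gene's value here is that of its brightest probe set, and 88 members had several tested ones. Of 45 such members that fell at 3 h in control cultures, 26 had another probe set that also fell, and for 36 at 6 h it was 21. Under the c-Fos shRNA it was 22 of 38 at 3 h and 10 of 30 at 6 h. Opposite calls between a gene's probe sets occurred at 3 h for Zfp84 and Zfp644 in control cultures and for Zfp148, Zfp451 and Zfp606 with the c-Fos shRNA. At 6 h they were for Zfp84, Zfp266, Zfp287, Zfp592, Zfp606 and Zfp644, and for Zfp235, Zfp451, Zfp560, Zfp592, Zfp606 and Zfp622. For Zfp560 the brighter probe set changed by 0.268 ± 0.081 (SE) at 6 h with the c-Fos shRNA and the dimmer by -1.57 ± 0.18 (SE), so this gene has no settled direction. When a gene's probe sets were averaged, 33 of 263 named changes lost their call with the sign kept, 9 reversed and 4 gained a call. Most of the 9 were then not called either. Cross-hybridisation between members was not tested.

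The labelled cell type was checked by markers. The summed intensities of 9 neuronal markers ran over the 16 arrays from 71103 to 88456, of 7 astrocyte markers from 14814 to 22353 and of 2 tested of 7 microglial markers from 289 to 368. Oligodendrocyte lineage markers summed to 9164 to 17547, with 10803 and 17547 on the 2 control arrays at 0 h. Markers of progenitors and dividing cells summed to 9010 to 12171, and those of vascular cells and fibroblasts to 607 to 1751. With KCl, of the 9 neuronal markers 3 rose and 1 fell at 3 h in control cultures, of 5 inhibitory neuron markers 2 rose and none fell, of 7 astrocyte markers 1 fell, and no tested marker of the oligodendrocyte lineage, microglia, vascular cells or dividing cells was called. Their part in the Zfp results was not tested. The values carry no detection calls, so no marker can be called absent. Array medians were 105 to 119, and replicates of a group correlated at 0.9906 to 0.9939.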

How the data were processed

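The submitters deposited 1 table of linear intensity values for 45101 probe sets on 16 arrays, with array medians of 104.75 to 118.56, which are the deposited intensity of each probe set as the authors summarised it. Its software and scaling are not stated by the labels, and a scaling of each array would hide a change common to most genes. From these values log2(intensity + 16) was taken and quantile-normalized over all arrays. Of the probe sets 34945 carried 1 gene in GEO's platform annotation, 932 several and 9160 none, and 64 were controls. Each gene was measured by its brightest probe set, symbols were updated to RefSeq through gene identifiers, and genes under the 30th percentile of mean signal were left out. limma 3.58.1 in R 4.3.3 fitted the 8 groups, with moderated tests, an intensity trend and Benjamini-Hochberg adjustment over 13916 genes at 0.05. The fit was tested on simulated data with noise drawn independently for each array. That test could not show how the fit behaves where same-numbered arrays deviate together.

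The labels number replicates 1 and 2 in every group. Deviations of same-numbered arrays from their group means correlated at 0.36 to 0.60 in all 28 pairs of groups (median 0.48), over 0.1 in each, so the numbers were taken to pair the arrays, and counts with the number as a block stand beside a result where they changed it by over 1.5 times.

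Members, gene lists and comparisons were chosen with earlier results of these data known. Genes were named by rank: the 12 largest falls and 8 largest rises of each KCl comparison whose arrays do not overlap, the 8 largest differences each way between the shRNAs, the 5 largest each way from 3 to 6 h, members called in an interaction, the 5 steadiest with a mean of at least 8, members with conflicting probe sets, those at the threshold, and lists of known roles. Zfp597 at 3 h and Zfp37 at 1 h in control cultures were added after their values were seen. Zfp488, Zfp609 and Zfp143 had no probe set of 1 gene here, and Zfp238 is named Zbtb18. The counts by level, by time of the lowest mean and by neighbouring gene were added after the data were seen. A planned split by KRAB domain and finger number was not made, as no protein table was used here.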

Additional observations from a re-analysis of the deposited data

Results flagged for a closer look

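For 2 members the change with KCl at 6 h differed between the shRNAs, by the interaction term in limma's fit over all tested genes. For Zfp410 the change with the c-Fos shRNA exceeded that with the control by 0.614 on the log2 scale, and for Zfp597 by 0.532. In both, the difference between the shRNAs was largest at 0 h and smaller at 6 h. Each call was lost without any 1 of 7 of the 8 arrays compared (adjusted p up to 0.112 for Zfp410 and 0.160 for Zfp597), and kept under the replicate block (adjusted p = 0.00167 and 0.0048). That of Zfp410 was also lost with no further normalization, after a median shift of every array and with the mean of its probe sets (adjusted p = 0.0513 to 0.195), and that of Zfp597 under the same settings, with no filter on dim genes and with no intensity trend (adjusted p = 0.0573 to 0.532). Groups of 2 arrays allow no test for a single outlying array.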

How the results depend on the processing

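Counts of members called were recomputed with no further normalization, each array shifted to one median, pseudocounts of 1 and 64, no filter on dim genes or one at the 50th percentile, no intensity trend, the mean of all probe sets of a gene, a member minimum of 7, the replicate block and, chosen after the data were seen, without probe sets of a shared-sequence suffix. Of 352 such counts 324 stayed within 1.5 times the reported one. Among them were all counts of KCl at 3 h against 0 h and the lower counts of KCl at 6 h against 0 h. The 324 include interaction counts that were 0 and stayed 0. The members' medians were recomputed under the first 2 of these settings only and kept their sign in each comparison, although the one between the shRNAs at 3 h was -0.007. With no further normalization the fall at 1 h in control cultures was 12. With the mean of all probe sets the fall from 3 to 6 h in control cultures was 4 and the rise 33, and the higher count between the shRNAs at 3 h was 13. Without shared-sequence suffixes the higher counts between the shRNAs were 7 at 0 h and 5 at 1 h. The higher interaction count at 6 h was 0 with no further normalization, with each array shifted to one median and with the mean of all probe sets, and 1 with no filter and without shared-sequence suffixes.

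With the replicate block, KCl at 1 h gave 50 lower and 8 higher in control cultures and 66 and 5 with the c-Fos shRNA, KCl at 6 h 30 higher with the c-Fos shRNA, and 3 to 6 h gave 16 lower in control cultures and 83 higher with the c-Fos shRNA. Between the shRNAs it gave 43 lower and 20 higher at 0 h, 17 higher at 1 h, 41 lower at 3 h, and 26 lower and 40 higher at 6 h. Interactions at 3 h were 1 lower and 5 higher, and at 6 h 2 lower and 19 higher. Of the 265 named changes the block added 9 calls and ended none. Calls were ended with the sign kept for 33 by the mean of all probe sets, which added 4 and reversed 9 changes. They were ended for 10 with no further normalization, for 9 by the shift to one median (which added 2) and for 7 with no filter. With no intensity trend calls were ended for 3, and with a pseudocount of 1 for 1. Leaving out 1 array ended a call in 138 pairs of change and array and added one in 2.

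Leaving out 1 array at a time, the fall at 1 h ranged from 4 to 9 in control cultures and from 9 to 29 with the c-Fos shRNA, whose rise at 1 h was 1 to 2 and at 6 h 11 to 16. From 3 to 6 h the lower counts were 4 to 7 and 3 to 5, and the higher counts 23 to 31 and 27 to 51. Between the shRNAs the lower and higher counts were 15 to 19 and 7 to 11 at 0 h, 23 to 34 and 5 to 7 at 1 h, 15 to 20 and 9 to 22 at 3 h, and 6 to 12 and 13 to 18 at 6 h. The higher interaction count at 6 h was 0 to 1. The fall at 3 h stayed between 97 and 104 in control cultures and between 85 and 88 with the c-Fos shRNA.

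With the mean of all probe sets 9 named changes reversed: Zfp235 at 6 h with the c-Fos shRNA became 0.163, Zfp266 at 6 h in control cultures 0.208, Zfp451 between the shRNAs -0.086, Zfp560 at 6 h with the c-Fos shRNA -0.651, Zfp592 at 6 h 0.020 and 0.193 with the control and the c-Fos shRNA, and Zfp606 0.290 at 6 h in control cultures and 0.082 and 0.374 at 3 and 6 h with the c-Fos shRNA. These members have probe sets that disagree. Only Zfp560 and Zfp606, both at 6 h with the c-Fos shRNA, were called in the new direction (adjusted p = 0.000177 and 0.0192). The other reversed changes were no longer called. Dim members are limited by the unknown background of the deposited intensities. The cause of the other shifts was not tested.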
